A study of Mus musculus with 20 samples.

Results

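The livers of mice made diabetic with streptozotocin (STZ) were compared with those of untreated mice, gene by gene, with an eye to what lies beyond the genes of largest change and the usual metabolic pathways. The 5 arrays whose titles name STZ-treated diabetic liver and the 5 whose titles name liver without STZ on control diet were taken, 10 of the 20 arrays of the series, with 1 mouse per array. STZ is a methylating sugar derivative that enters cells through a glucose transporter and kills the insulin-producing beta cells of the pancreas. STZ mice were male BALB/c mice that arrived at an age of 6 weeks, received 1 intraperitoneal injection of 185 mg/kg STZ in citrate buffer, entered the experiment with a non-fasting blood glucose of 330 to 590 mg/dL, and ate AIN93G diet for 14 days. Untreated mice were male BALB/c mice of the same age on the same diet and received no injection, so STZ, its injection and the diabetes that followed cannot be told apart here. Of 6 mice in each group, 5 had an array. The other 10 arrays, from STZ mice fed 0.1% or 0.5% phloridzin in the same diet, served to estimate the spread between mice.

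Insulin from the pancreas reaches the liver first. Hepatocytes answer it by storing sugar and making fat, and by holding back the production of glucose. When insulin is lost, glucagon, glucocorticoids and fatty acids act on the hepatocyte unopposed, and the liver turns to burning fatty acids, breaking down amino acids and releasing glucose. The hepatocyte also runs one-carbon and nucleotide chemistry, moves solutes across its membranes, secretes plasma proteins, holds contacts around the bile canaliculus and keeps its own transcription factors, and the genes of these tasks are described here.

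The value of a probe set was a linear signal that averaged 100 on every array after the lowest and highest 2% were dropped. Background was set at the highest array median of the series, 17.1, and a group mean at or below it was treated as not above background; 19250 to 21725 probe sets on an STZ array and 21229 to 22117 on an untreated array exceeded it. Tests were run on log2(signal + 16), so fold changes are of the signal plus 16 and understate the change of dim genes. The signals of 2 arrays of a group correlated at 0.9757 to 0.9847 in STZ liver and at 0.9789 to 0.9853 in untreated liver over all probe sets, and probe sets are no independent replicates. Of 9 hepatocyte markers measured, Alb, the gene of serum albumin, had a mean signal of 11553 ± 2495 in STZ liver against 13908 ± 1148 in untreated liver (SD, n = 5 each). Fgb, the fibrinogen beta chain, was the 1 marker called, at 1.33-fold lower in STZ liver (limma adjusted p = 0.0404), a call that ended when any 1 of 8 of the 10 arrays was left out. The summed signal of the 9 markers was 65832 to 96275 in STZ liver and 93443 to 104230 in untreated liver. Counted by sign alone, 3 of the 9 were higher and 6 lower in STZ liver, with a median of −0.29 log2 units. The ratio of 3′ to 5′ Gapdh signal, a measure of RNA integrity, was 0.690 to 0.792 in STZ liver and 0.698 to 1.07 in untreated liver. For beta-actin the same ratio was higher, at 1.76 to 2.36 in STZ liver and 1.62 to 2.48 in untreated liver. The spiked bacterial control bioD read 3097 to 3795 in STZ liver and 3997 to 4794 in untreated liver, without overlap, and the part of hybridisation in the results was not tested.

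Of 12941 genes tested, 1785 were called at a limma adjusted p under 0.05, which is 13.8%, with 893 higher (6.9%) and 892 lower (6.89%) in STZ liver. Most of these changes were small. The change was under 1.5-fold in 907 of them (50.8%), between 1.5-fold and 2-fold in 554, between 2-fold and 4-fold in 272, and 4-fold or more in 52. Among these 52 genes, 38 were higher and 14 were lower. The median fold was 1.495 among the higher and 1.49 among the lower genes, and the smallest fold called was 1.18. The 95% interval around a difference had a median of ± 0.30 log2 units, or 1.23-fold, so that smaller changes were mostly not detectable with 5 mice per group. This interval is not adjusted for the number of genes tested, so larger changes could also go uncalled. Calls were rarer among dim genes: of 5 bins of equal size by mean level, the dimmest had 3.05% of its genes called, against 22.6% in the brightest, where 341 were higher and 244 lower. The count of calls depended on single mice, with 1175 calls without the fifth STZ mouse and 1992 without the first. With each of the 10 arrays left out in turn, 963 genes kept their call, 513 higher and 450 lower. Below, a gene kept its call in all 10 of these fits unless stated. The median difference of all genes, STZ minus untreated, was −0.05 log2 units on the deposited scale and 0.03 after median centring of the arrays, and with centring the split was 1138 higher and 509 lower.

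The 5 STZ mice did not respond alike. Among the 893 genes called higher, the median shift from the untreated mean was 0.42 log2 units in the first STZ mouse and 0.59 to 0.66 in the other 4. Among the 892 genes called lower it was −0.45 in the first STZ mouse and −0.57 to −0.67 in the other 4. The first STZ mouse lay above all 5 untreated mice for 82.9% of the genes called higher, against 94.5% to 96.1% in the other 4 STZ mice. These genes were called with these mice, so the shifts are a description. Over all genes the SD between mice was larger in STZ liver for 61.1%, with a median of 0.21 log2 units in STZ and 0.18 in untreated liver. The STZ mice fed phloridzin share the same untreated mean, and their median shift from it was 0.36 to 0.72 (0.1% phloridzin) and 0.32 to 0.66 (0.5% phloridzin) for the same genes called higher.

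**Figure D1:**
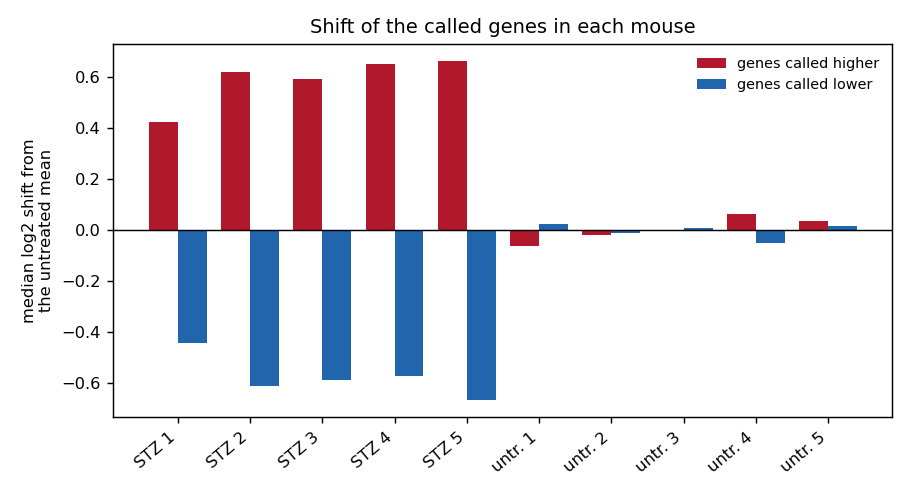
Median shift of the 893 genes called higher (red) and the 892 called lower (blue) from the untreated mean in each of the 10 mice, in log2 units, with STZ mice on the left. The first STZ mouse, at 0.42 and −0.45, has the smallest shift of the STZ mice, and the untreated mice lie near 0.

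Single genes were named by rank after 75 genes were set aside, mostly those of largest change and of glucose, lipid, bile acid and clock pathways. For the first ranking, by p-value, only called genes were taken whose 2 groups did not overlap and whose lower group was above background. Among the 10 remaining genes that rose with the smallest p-values, several encode signalling and secretory proteins. Exoc4, a subunit of the exocyst that tethers secretory vesicles to the plasma membrane, had signals of 439, 407, 444, 389.6 and 384 in the 5 STZ mice. In the untreated mice it had 118, 125, 108, 148 and 116, so the groups were far apart. It rose 3.10-fold (log2 difference 1.63 ± 0.12, SE, n = 5 each, limma adjusted p = 5.04e-08), and all 4 of its probe sets above background differed in the same direction, but the fold was 1.85 when a gene's probe sets were averaged. Ly6e, an interferon-inducible surface protein anchored in the membrane by a lipid, had 8343, 5616, 5968, 7409 and 5936 in STZ mice against 2729.7, 2368, 2224, 2675 and 2081 in untreated mice, a 2.73-fold rise. Sesn2, a leucine sensor that restrains the growth kinase mTORC1, had 104, 131, 147, 115 and 130.3 in STZ mice against 43.7, 38.5, 49.5, 53.7 and 55.5 in untreated mice and rose 2.20-fold. The first STZ mouse was as far from the untreated mice as the others for Exoc4.

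Ptgds, the lipocalin that makes prostaglandin D2, had signals of 201, 303, 278, 364 and 353 in STZ mice against 48.5, 51.9, 43.5, 62.3 and 56.7 in untreated mice, a rise of 4.54-fold (limma adjusted p = 3.46e-07). Sulf2, a secreted sulfatase that trims heparan sulfate, rose 2.88-fold, with 537, 474, 492, 606 and 524 in STZ mice against 116, 191, 146, 199 and 227 in untreated mice. For Sulf2, 2 of 3 probe sets above background differed in this direction. Bche, the butyrylcholinesterase that the liver secretes into plasma, rose 2.66-fold to 1144 ± 183 in STZ liver, against 415 ± 20.9 in untreated liver (SD, n = 5 each). Dglucy, the mitochondrial D-glutamate cyclase, rose 2.40-fold to 392 ± 58.1 in STZ liver, against 153 ± 7.10 in untreated liver. Plk2, a kinase of the polo family, rose 2.45-fold, or 1.54-fold with averaged probe sets. That the groups stayed apart for each of these genes was a condition of the ranking.

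Cyp2c39 and Upp2 had the largest changes of these 10 genes. Cyp2c39, a cytochrome P450, had signals of 1418, 3239, 2782, 3059 and 4217 in the 5 STZ mice against 199, 278, 328, 521 and 359 in the untreated mice, an 8.28-fold rise (log2 difference 3.05 ± 0.30, limma adjusted p = 1.5e-06). Mouse Cyp2c genes are close copies of each other, so its probe set may also catch related transcripts. Upp2, the liver uridine phosphorylase, which splits uridine into uracil and ribose phosphate, had 2387, 3885, 3204, 2678 and 2860.2 in STZ mice against 318, 408, 459.8, 312 and 480.4 in untreated mice. This was a 7.34-fold rise (limma adjusted p = 6e-06), in the same direction at all 3 of its probe sets.

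Among the remaining genes that fell, taken under the same conditions, Chka and Selenbp1 had the smallest p-values. Chka, choline kinase alpha, which starts phosphatidylcholine synthesis from choline, had signals of 103, 110.2, 119, 187 and 152 in STZ mice against 503, 354, 461, 506 and 361 in untreated mice. It fell 3.04-fold (log2 difference −1.60 ± 0.17, limma adjusted p = 3.35e-06), and the fourth STZ mouse came closest to the untreated mice. Selenbp1, an abundant liver enzyme that oxidises methanethiol, had 5076, 3121, 2953, 3841 and 3105 in STZ mice against 9959, 8850.4, 8023, 6601 and 9129.5 in untreated mice, a 2.37-fold fall (limma adjusted p = 5.36e-06). Cited2, a nuclear protein that competes with hypoxia-inducible factor for the coactivator CBP, had 275, 198, 211, 191 and 232 in STZ mice against 524, 481, 461, 417 and 412 in untreated mice and fell 2.01-fold.

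Trp53inp2, a protein of autophagosome formation that also binds nuclear receptors, fell 2.53-fold to 871 ± 184 in STZ liver, against 2188 ± 135 in untreated liver (SD, n = 5 each). Ces1e, a carboxylesterase, fell 2.56-fold, with 459, 414, 362, 266 and 329.7 in STZ mice against 836, 944, 957, 1050.1 and 956 in untreated mice. Sult5a1, a sulfotransferase, fell 4.08-fold to 40.5 ± 20.6 in STZ liver, against 216 ± 80.3 in untreated liver. Of 4 membrane proteins in the same group, the tetraspanin Tspan33 fell 2.65-fold, Cystm1 2.04-fold, the lysosomal transporter Slc49a4 1.76-fold and the large adhesion receptor Adgrv1 3.75-fold. Averaged probe sets gave 1.99-fold for Adgrv1. No untreated mouse overlapped the STZ mice for any of these genes, as the ranking required.

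**Figure D2:**
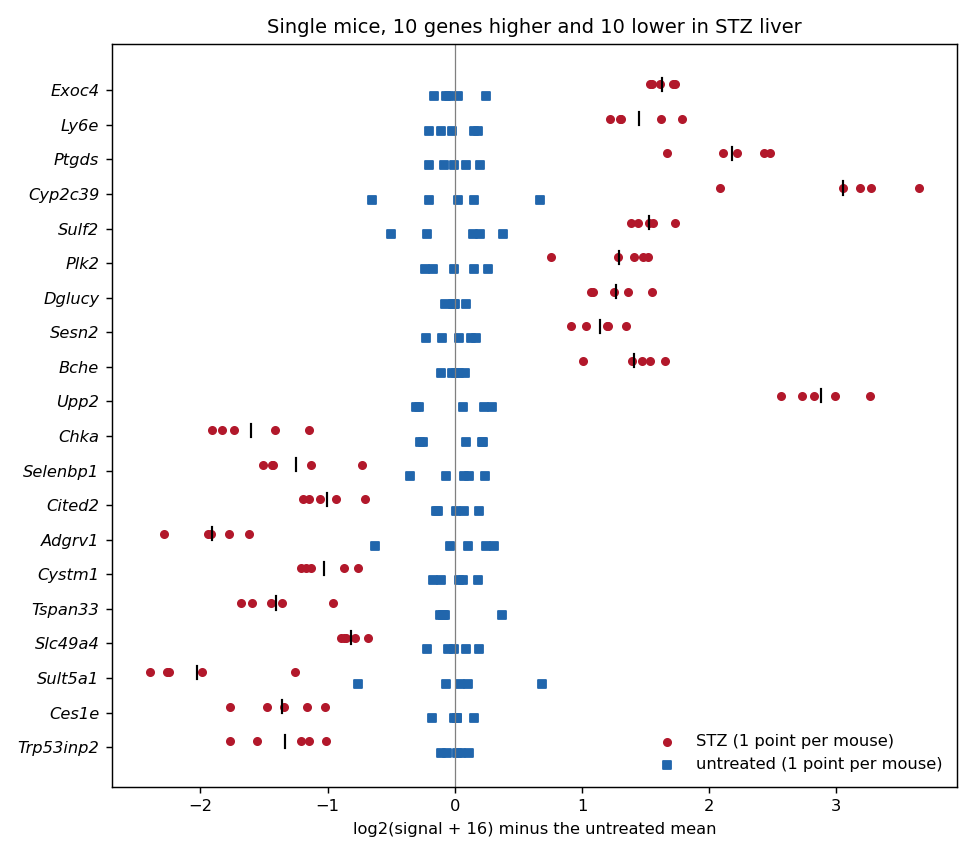
Each point is 1 mouse, as log2(signal + 16) minus the untreated mean of the gene, for the 10 genes higher and the 10 genes lower in STZ liver with the smallest p-values after 75 genes were set aside. STZ mice are red circles above and untreated mice are blue squares below in each row, and the short black line is the STZ mean. Only called genes without overlap between groups and with the lower group above background were ranked, so the lack of overlap is by selection.

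Promoters were at hand for these 20 genes except Ly6e and Cystm1, and 3 of them held a D-box or a FOXO element. They are shown because the share of promoters with a D-box was above that of all genes among genes at least 2-fold higher or lower, and the share with a FOXO element among genes at least 2-fold higher. Other motifs with a share above that of all genes, such as the TATA box, are given below and are not shown. The D-box (TTATGTAA) is the site of the PAR bZIP factors of the circadian clock and of NFIL3, and the forkhead element (GTAAACA) is bound by FOXO proteins, which insulin keeps out of the nucleus. Sequences are the 250 bases before the RefSeq start of the gene, GRCm38.p6, 5′ to 3′ along the gene's strand, with the motif in capitals, as its reverse complement in Ptgds and Cyp2c39. Ptgds lies at chr2:25469750-25469999, minus strand, and its D-box begins 141 bases before the start. Ces1e lies at chr8:93229620-93229869, minus strand, with its D-box 81 bases before the start. Cyp2c39 lies at chr19:39347096-39347345, plus strand, with its FOXO element 232 bases before the start, and is the first of 2 promoters listed.
Ptgds: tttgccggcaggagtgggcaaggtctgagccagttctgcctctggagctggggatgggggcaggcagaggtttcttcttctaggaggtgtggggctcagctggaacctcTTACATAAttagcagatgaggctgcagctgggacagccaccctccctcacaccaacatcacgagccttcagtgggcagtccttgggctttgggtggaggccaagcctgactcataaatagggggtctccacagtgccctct
Ces1e: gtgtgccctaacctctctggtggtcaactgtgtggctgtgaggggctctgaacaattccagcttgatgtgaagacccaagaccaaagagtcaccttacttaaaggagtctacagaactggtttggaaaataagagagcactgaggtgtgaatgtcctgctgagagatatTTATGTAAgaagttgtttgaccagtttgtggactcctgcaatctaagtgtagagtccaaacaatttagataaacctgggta
Cyp2c39: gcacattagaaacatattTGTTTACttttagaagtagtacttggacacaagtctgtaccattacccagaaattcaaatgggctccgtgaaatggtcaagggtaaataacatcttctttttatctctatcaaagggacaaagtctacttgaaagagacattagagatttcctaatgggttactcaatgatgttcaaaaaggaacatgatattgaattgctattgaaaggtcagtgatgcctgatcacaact

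Promoters of 300 bases, 250 before the start and 50 after it, were found for 10395 of the genes tested, and both strands were searched. A D-box was found in 4 of the 138 promoters of genes at least 2-fold higher in STZ liver (2.90%) and in 2 of 110 of genes at least 2-fold lower (1.82%), against 0.539% of all promoters. The 4 were those of Coq10b, Gde1, Per3 and Ptgds, and the 2 those of Ces1e and Inhba, and the call of Gde1 ended without any 1 of 7 arrays. A FOXO element was found in 9 of the 138 (6.52%) and in 1 of the 110 (0.909%), against 2.62% of all promoters. Among these 9 were the promoters of Cyp2c39, of another Cyp2c gene, of the drug pump gene Abcb1a and of Sult1d1, a sulfotransferase. Because Cyp2c genes are close copies, their matches may not be independent. Over all called genes the shares with a FOXO element were 2.67% of 711 genes called higher and 1.97% of 710 called lower. The E-box (CACGTG), bound by clock proteins, USF and MYC, was found in 13.4% of promoters of genes called higher, 9.86% of those called lower and 10.1% of all. The TATA box (TATAAA) was found in 13.04% of the promoters of genes at least 2-fold higher and 15.5% of those at least 2-fold lower, against 7.78% of all. The other motifs of the 11 searched were the cyclic AMP element (TGACGTCA), the STAT element (TTCNNNGAA), the antioxidant element (TGACNNNGC), the CCAAT box (CCAAT), the GC box (GGGCGG), the PPAR element, a direct repeat, and the glucocorticoid element, an inverted repeat. The cyclic AMP element was found in 2.90% of promoters of genes at least 2-fold higher and 1.82% of those at least 2-fold lower, against 2.98% of all, and the GC box in 54.3% and 49.1%, against 61.2%. The STAT element was found in 4.35% and 8.18%, against 6.93%, the antioxidant element in 15.9% and 10%, against 14.6%, and the CCAAT box in 42.8% and 36.4%, against 38.2%. The PPAR element was found in 4 and the glucocorticoid element in 1 of all promoters. The last bases of a D-box can be the first of a FOXO element, so a stretch can hold both. A motif match is a string of letters and not a bound site.

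Of the 6 remaining genes of highest signal called in each direction, those without a call lost to a single array were Mat1a, Sult1a1, Mbl2 and Hgd, all higher, and Dbi, lower. Mat1a, the methionine adenosyltransferase of adult liver, which makes the methyl donor S-adenosylmethionine, had signals of 6903, 7064, 7627, 9696 and 8571 in STZ mice against 2848, 3512, 3494, 4712 and 3358 in untreated mice, a 2.23-fold rise (limma adjusted p = 0.000137). All 5 STZ mice were above all 5 untreated mice. Sult1a1, a phenol sulfotransferase, rose 2.27-fold to 7303 ± 1491 in STZ liver, against 3163 ± 407 in untreated liver (SD, n = 5 each). Mbl2, a mannose-binding lectin of innate immunity, rose 1.86-fold, and Hgd, an enzyme of tyrosine breakdown, 1.40-fold. Dbi, the acyl-CoA binding protein, fell 1.47-fold, with 7382, 7410.3, 6478, 6464 and 5633 in STZ mice against 9258, 9562, 10161, 9355 and 10600.0 in untreated mice.

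Changes of the other abundant transcripts, Fgb among them, depended on single arrays. Kng1, the precursor of bradykinin, was 1.27-fold higher and Apoc2, the apolipoprotein that activates lipoprotein lipase, 1.31-fold higher in STZ liver. Car3, carbonic anhydrase 3, was 1.45-fold lower, Gstp1, a glutathione transferase, 1.39-fold lower, Mug1, a protease inhibitor of plasma, 1.32-fold lower and Cyp2c29, a cytochrome P450, 1.54-fold lower. The call ended without any 1 of 9 of the 10 arrays for Car3 and Gstp1, 7 for Apoc2, and 6 for Kng1 and Mug1, and without the second or the fourth STZ mouse for Cyp2c29. Those of Fgb, Car3, Gstp1 and Mug1 also ended after median centring, those of Fgb, Car3 and Gstp1 after quantile normalization, and that of Kng1 with averaged probe sets. With averaged probe sets Car3 was 2.64-fold lower (limma adjusted p = 0.0114). For Car3 and Gstp1 the groups overlapped.

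Some small changes had small p-values. Commd3, a subunit of an endosomal sorting complex, was 1.49-fold higher, with 1277, 1195, 1209, 1133 and 1216 in STZ mice against 869, 812, 745, 853 and 756 in untreated mice (limma adjusted p = 0.000185). Psmb10, a catalytic subunit of the immunoproteasome, was 1.49-fold higher and Pgm1, the phosphoglucomutase that joins glycogen and glucose metabolism, 1.34-fold higher. Hao1, the peroxisomal glycolate oxidase that makes glyoxylate, was 1.47-fold lower, at 2468 ± 207 in STZ liver against 3626 ± 265 in untreated liver. Fars2, the mitochondrial phenylalanyl-tRNA synthetase, was 1.49-fold lower. Of 2 proteins of the Golgi secretory path, Tgoln1 was 1.49-fold lower and Lman2l 1.46-fold lower.

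Some genes crossed the limit of background. In STZ liver 58 genes were called higher from an untreated mean at or below 17.1, and 69 were called lower to an STZ mean at or below it. Slc16a5, a monocarboxylate carrier, had signals of 44.4, 175, 154, 118 and 136 in STZ mice against 12.7, 3.71, 13.8, 12.98 and 22.6 in untreated mice. Abcb1a, the multidrug efflux pump, had 51.4, 76.7, 98.6, 81.6 and 90.8 in STZ mice against 13.2, 10.2, 15.3, 24.7 and 17.9 in untreated mice. Cyp2b10, a P450 induced through the receptor CAR, had 35.97, 232, 62.6, 113 and 322 in STZ mice against 9.68, 15.4, 22.4, 19.3 and 13.6 in untreated mice, and its call ended without the second or the fifth STZ mouse or the first untreated mouse. Serpina9, a serine protease inhibitor, had 36.6, 9.95, 8.88, 2.25 and 0.702 in STZ mice against 138, 104, 102, 62.5 and 123.5 in untreated mice. Dnmt3b, a de novo DNA methyltransferase, had 18.0, 10.3, 15.5, 15.8 and 15.5 in STZ mice against 64.7, 60.1, 51.7, 69.9 and 81.9 in untreated mice. No fold is given where 1 group was not above background.

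The 5 genes taken here varied most among STZ mice, among remaining genes with an untreated mean above background. Each had the first STZ mouse at one end of the STZ range, and 4 of them are given. Mt2, a metallothionein that binds zinc and copper, had 71.8, 2581, 1247, 2114 and 2155 in STZ mice against 41.3, 73.3, 99.7, 79.2 and 60.7 in untreated mice. Cyp4a12a, a P450 of male liver, had 2265, 330.1, 406, 247 and 93.5 in STZ mice against 2648, 2558, 2279, 2564 and 1824 in untreated mice. Slco1a1, an organic anion carrier, had 2393, 327, 913, 525 and 181 in STZ mice against 3312, 2995, 2846, 3181 and 2573 in untreated mice. For these 3 genes the first STZ mouse was near the untreated mice while the other 4 were not. Sult1e1, the estrogen sulfotransferase, lay outside these 5, as its untreated mean was not above background. It had 5.64, 624, 256, 168 and 513 in STZ mice against 1.24, 8.62, 1.43, 1.21 and 0.560 in untreated mice. Ppp1r3g, a subunit that brings a phosphatase to glycogen, had 26.8, 541, 261, 70.9 and 320.0 in STZ mice against 14.5, 19.3, 43.9, 11.8 and 22.5 in untreated mice. For both genes the first STZ mouse was lowest of the STZ mice and overlapped the untreated mice. The call of Ppp1r3g ended without any 1 of 8 arrays, and Cyp4a12a and Slco1a1 missed the threshold (limma adjusted p = 0.0564 and 0.0602). Without the first STZ mouse both were called, Cyp4a12a at 9.31-fold lower (limma adjusted p = 0.0152) and Slco1a1 at 6.96-fold lower (limma adjusted p = 0.0223), while with it they were 6.00-fold and 4.93-fold lower.

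Genes were grouped in 55 lists by function. For each list the counts of called members are set beside the 6.9% called higher and 6.89% called lower among all genes, and no test of a list was made. These counts moved with single arrays, so the number of members that kept their call with each array left out, or the range of the count, is given for the lists that stand apart. Median differences of a list are in log2 units, beside −0.05 for all genes.

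**Figure D3:**
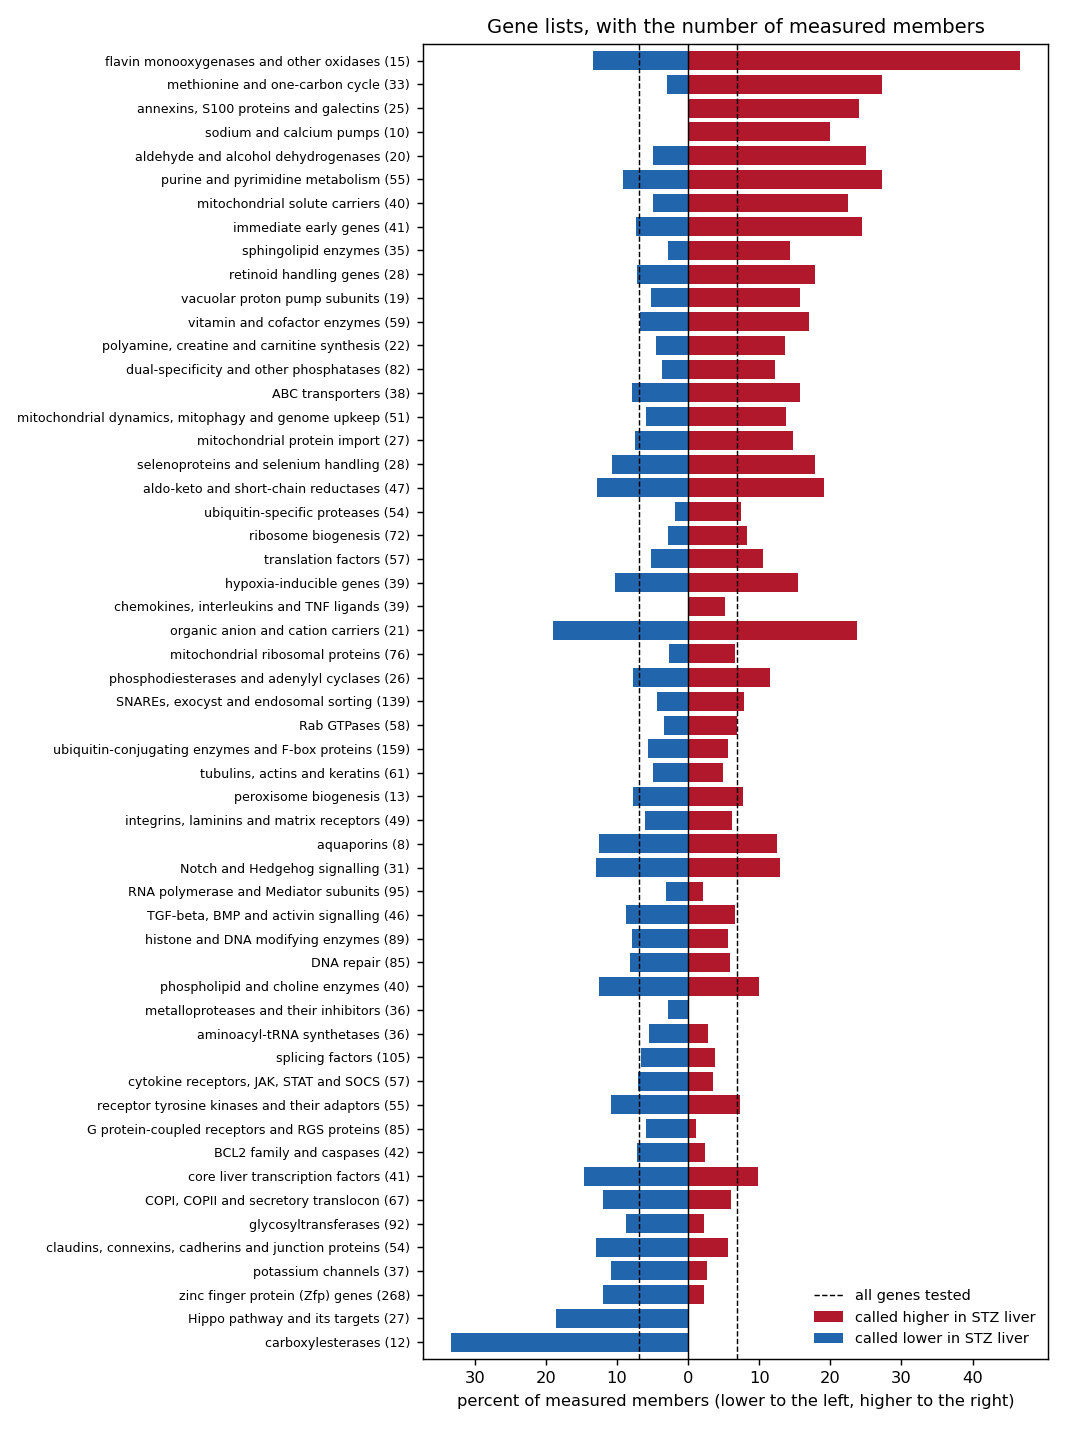
Percent of the measured members of each gene list called higher (red, to the right) and lower (blue, to the left) in STZ liver, with the number of measured members in brackets. The dashed lines mark 6.9% and 6.89%, the shares among all 12941 genes tested. The lists of oxidases and of the one-carbon cycle lie far to the right, and those of carboxylesterases, Hippo signalling and Zfp genes to the left.

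Among carriers of the inner mitochondrial membrane 9 of 40 were higher and 2 lower, and 7 of the 9 kept their call with each array left out (median 0.05). Slc25a22, a glutamate carrier, had signals of 1294, 1489, 1431, 1476 and 1144 in STZ mice against 561, 637, 556, 671 and 595 in untreated mice, a 2.22-fold rise (log2 difference 1.15 ± 0.13, limma adjusted p = 6.19e-06). Slc25a10, the dicarboxylate carrier, rose 1.77-fold, Slc25a13, the aspartate-glutamate carrier citrin, 1.59-fold and Slc25a11, the oxoglutarate carrier, 1.495-fold. Chosen after their values were seen, Slc25a15, the ornithine carrier of the urea cycle, rose 1.45-fold, Slc25a12, the second aspartate-glutamate carrier, 1.52-fold and Slc25a51, the NAD carrier, 1.89-fold. The call of Slc25a12 ended with averaged probe sets. Slc25a30 ran the other way, at 402 ± 317 in STZ liver against 1136 ± 226 in untreated liver, a 3.24-fold fall with overlap between the groups.

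The counts of other mitochondrial lists were nearer to those of all genes. Of 76 mitochondrial ribosomal proteins 5 were higher and 2 lower, and 0 of the 7 kept the call with each array left out. By sign alone, 57 of the 76 were higher and 19 lower, with a median of 0.10. Of 27 import proteins 4 were higher and 2 lower, with Tomm40, the pore of the outer membrane, 1.38-fold higher. Of 51 genes of mitochondrial dynamics, mitophagy and genome upkeep 7 were higher and 3 lower. Clpx, the unfoldase of a matrix protease that also activates the first enzyme of heme synthesis, fell 2.45-fold, with 808, 1019.8, 667, 1858 and 901 in STZ mice against 2725, 2470.4, 2738, 2070.3 and 2253 in untreated mice. Ppargc1b, a coactivator of mitochondrial genes, was 1.67-fold higher.

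Plasma membrane carriers changed often and in both directions. Of 21 organic anion and cation carriers 5 were higher and 4 lower, and 4 of the 5 and 3 of the 4 kept their call with each array left out. Slc22a5, the carnitine carrier, rose 2.32-fold to 384 ± 76.1 in STZ liver, against 154 ± 20.2 in untreated liver (SD, n = 5 each). Slc22a30 fell 2.18-fold and Slco2a1, the prostaglandin transporter, 1.54-fold. Of 38 ABC transporters 6 were higher and 3 lower, and 5 of the 6 and 2 of the 3 kept their call. Abcg8, a subunit of the sterol pump of bile, was 1.65-fold higher and Abcb4, which moves phosphatidylcholine into bile, 1.45-fold higher, while Abcg2, an efflux pump, was 2.11-fold lower.

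Water and ion transport changed at single genes. Aqp8, a water channel of the hepatocyte, had signals of 596, 393, 243, 506 and 147 in STZ mice against 1440.0, 1316, 1686, 2038 and 1564 in untreated mice, a 4.55-fold fall (limma adjusted p = 0.0128). The first STZ mouse was highest of the STZ mice. Atp1b1, the beta subunit of the sodium pump, had 689, 1304, 1392, 1112 and 1109 in STZ mice against 365, 348, 390.4, 447 and 302 in untreated mice, a 2.89-fold rise in the same direction at all 4 probe sets. Kcnk5, a potassium channel, was 2.11-fold higher, the 1 higher among 37 potassium channels measured, of which 4 were lower. Atp6v1d, a subunit of the vacuolar proton pump, was 1.79-fold higher, 1 of 3 higher among 19 subunits.

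The methionine and one-carbon cycle had 9 of 33 genes higher and 1 lower (median 0.11), and 7 of the 9 kept their call with each array left out. This cycle makes S-adenosylmethionine for methylation and passes homocysteine on to cysteine. Besides Mat1a, Cth, the last enzyme of cysteine synthesis, was 1.80-fold higher at 5711 ± 1201 in STZ liver against 3131 ± 387 in untreated liver (SD, n = 5 each). Sardh, which demethylates sarcosine, was 1.63-fold higher, and Mthfd1l, the mitochondrial formate producer, 1.94-fold higher. Mtrr, which keeps methionine synthase active, was 1.40-fold higher and Ftcd, an enzyme of histidine breakdown and folate chemistry, 1.34-fold higher, both named after their values were seen. The 1 lower gene was Ahcyl2, a relative of the S-adenosylhomocysteine hydrolase.

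In phospholipid metabolism Chka, described above, fell with the smallest p-value, and Gpcpd1, which frees choline from glycerophosphocholine, was 3.67-fold higher, with 1191, 1336, 1789, 1276 and 1412 in STZ mice against 378, 361, 345, 353 and 396 in untreated mice. Averaged probe sets gave 2.29-fold for Gpcpd1. Of the 40 genes of the list 4 were higher and 5 lower, and Chka was the 1 of these 5 that kept its call with each array left out. Crls1, the cardiolipin synthase, was 1.61-fold higher. Among 35 sphingolipid enzymes 5 were higher and 1 lower, with 3 to 6 higher when single arrays were left out. Cers6, a ceramide synthase that prefers long acyl chains, rose 2.98-fold, with 109, 215, 203, 128 and 250.2 in STZ mice against 48.5, 44.4, 39.3, 57.2 and 50.2 in untreated mice. St3gal5, which makes the ganglioside GM3, rose 2.71-fold to 995 ± 247 in STZ liver, against 350.4 ± 50.6 in untreated liver.

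Purine and pyrimidine metabolism had 15 of 55 genes higher and 5 lower (median 0.13), with 11 to 13 higher when single arrays were left out and 10 that kept their call in all 10 fits. The genes called act in both the making and the breakdown of nucleotides. Next to Upp2, Tk1, the cytosolic thymidine kinase, was 2.26-fold higher, with 143, 179, 185, 121 and 183 in STZ mice against 55.7, 61.1, 55.0, 89.2 and 54.1 in untreated mice. Gda, guanine deaminase, was 1.59-fold higher and Adssl1, which takes part in making AMP from IMP, 1.94-fold higher. Ppat, the first committed enzyme of purine synthesis (2.06-fold higher), and Cda, cytidine deaminase (3.03-fold lower, at 49.6 in STZ against 173 in untreated liver), were named after their values were seen.

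Gch1, the first enzyme of tetrahydrobiopterin synthesis, had signals of 1378, 1399, 1577, 1903 and 1747 in STZ mice against 610.0, 621, 696, 769.5 and 614 in untreated mice, a 2.38-fold rise (limma adjusted p = 3.06e-05). It was 1 of 10 higher among 59 vitamin and cofactor genes, with 4 lower, and 5 of the 10 kept their call with each array left out. Slc5a6, the carrier of biotin and pantothenate, was 2.04-fold higher, and Tcn2, which carries vitamin B12 in plasma, 1.61-fold higher at all 5 of its probe sets. Agmat, an agmatinase-like enzyme, rose 1.97-fold to 3418 ± 394 in STZ liver, against 1719.9 ± 131 in untreated liver. Among 28 selenium genes 5 were higher and 3 lower, and 4 of the 5 and 2 of the 3 kept their call. Txnrd1 and Txnrd2, the thioredoxin reductases of cytosol and mitochondria, were 1.46-fold and 1.54-fold higher, and both calls ended with averaged probe sets.

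Of the 55 lists, that of oxidases had the highest share of rises, 7 of 15 genes higher and 2 lower (median 0.26), and 4 of the 7 kept their call with each array left out. The count of 7 fell to 4 without the third or the fifth STZ mouse or the third untreated mouse. Flavin monooxygenases add oxygen to nitrogen and sulfur atoms of amines and drugs. Fmo1 was 1.58-fold higher, at 2661 ± 174 in STZ liver against 1684 ± 206 in untreated liver (SD, n = 5 each), and Fmo4 1.72-fold higher. Fmo2, named after its values were seen, was 5.91-fold higher, with 398, 596, 880.4, 452 and 1260.0 in STZ mice against 80.1, 79.2, 107, 107 and 119 in untreated mice. Aox3, an aldehyde oxidase, fell 3.07-fold, with 2258, 864, 988, 1116 and 669 in STZ mice against 3529.8, 3397, 3319, 2929 and 3532 in untreated mice. The 2 lower genes were Aox3 and Hao1.

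Of 20 aldehyde and alcohol dehydrogenases 5 were higher and 1 lower, with 3 to 5 higher when single arrays were left out. Aldh1b1 of mitochondria was 2.27-fold higher, Aldh3a2, the fatty aldehyde dehydrogenase, 1.93-fold higher and Aldh4a1 of proline breakdown 1.45-fold higher. Of 47 aldo-keto and short-chain reductases 9 were higher and 6 lower, and all 9 of the higher kept their call. Cbr1, a carbonyl reductase, had 571, 1151, 1107, 1120.5 and 1905 in STZ mice against 289, 316, 314, 359 and 275 in untreated mice, a 3.41-fold rise, and Akr1c19 rose 3.18-fold. Rdh16, a retinol dehydrogenase, was 2.03-fold higher and Dhrs3, which turns retinal back into retinol, 1.65-fold lower.

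Of 12 carboxylesterases, which split esters of drugs and lipids, 4 were lower and 0 higher, and 3 of the 4 kept their call with each array left out. Ces1e is described above. Ces4a had 16.98, 19.8, 30.98, 19.4 and 16.4 in STZ mice against 67.2, 74.7, 71.7, 56.1 and 52.1 in untreated mice, a 2.20-fold fall. Ces2b had 43.5, 16.9, 1.09, 7.79 and 11.4 in STZ mice, a mean not above background, against 211, 158, 55.1, 20.3 and 108 in untreated mice, with overlap. Ces1f was 1.71-fold lower, also with overlap, and its call ended without any 1 of 9 arrays. These genes lie on chromosome 8 and include close copies, so probe sets may share transcripts.

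**Figure D4:**
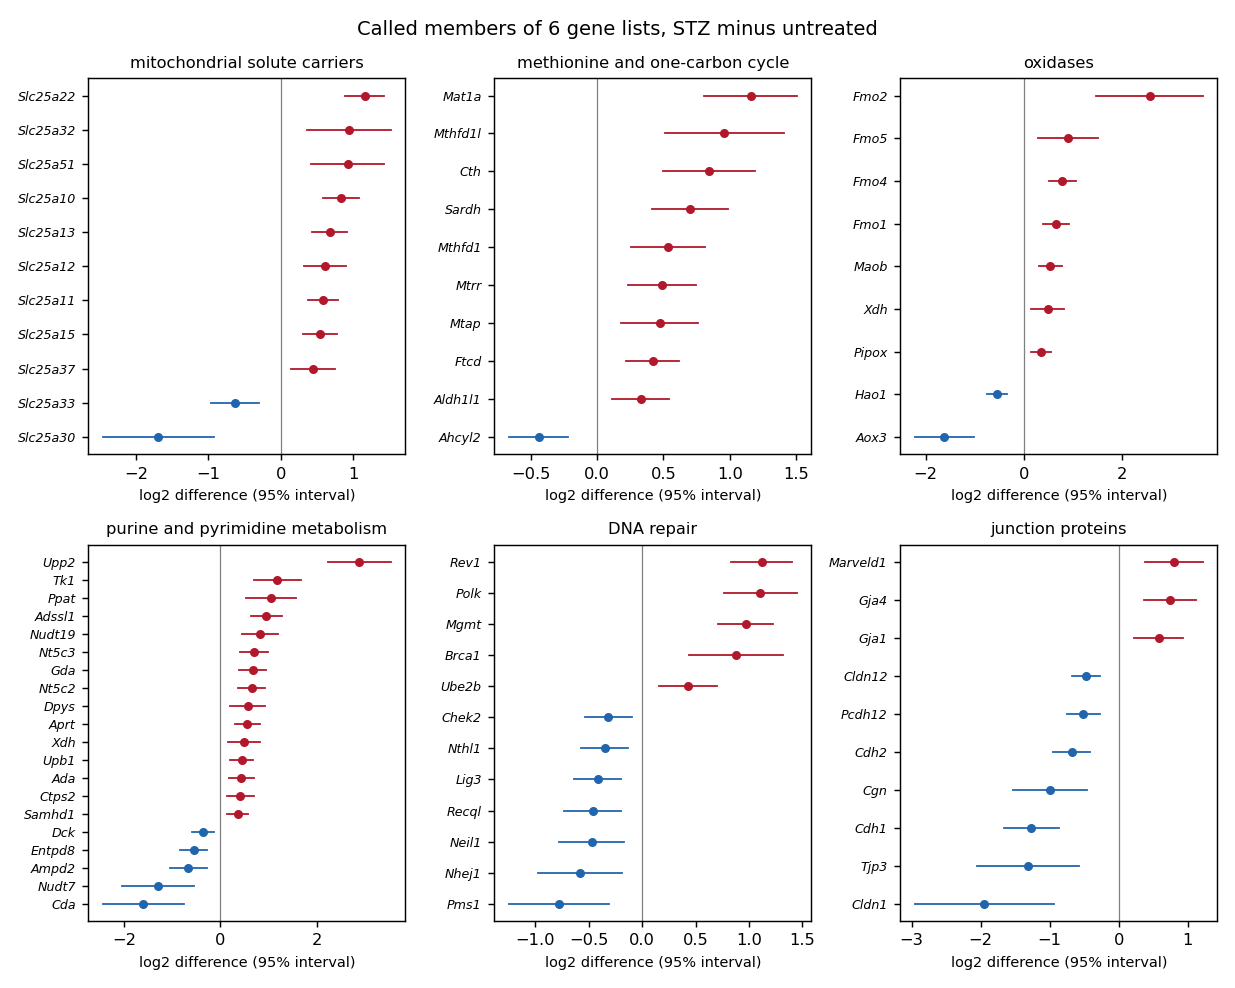
Log2 difference, STZ minus untreated, of every called member of 6 gene lists, with its 95% interval from the limma fit (points red when higher and blue when lower in STZ liver, 5 mice per group). Slc25a30, Aox3, Cda and Cldn1 stand out to the left, and Slc25a22, Mat1a, Fmo2 and Upp2 to the right.

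Of 85 genes of DNA repair 5 were higher and 7 lower (median −0.10). Brca1, which repairs double-strand breaks, and Mgmt, Polk and Rev1 kept their higher call with each array left out, and Lig3 kept its lower call. Mgmt, the protein that takes methyl groups off guanine, had signals of 108, 96.7, 132, 96.3 and 88.5 in STZ mice against 43.9, 32.2, 49.1, 59.7 and 43.6 in untreated mice, a 1.96-fold rise (log2 difference 0.97 ± 0.12, limma adjusted p = 3.71e-05). Rev1, a polymerase that copies past damaged bases, had 74.9, 99.8, 99.8, 75.7 and 109 in STZ mice against 31.4, 34.9, 29.2, 39.1 and 32.3 in untreated mice, a 2.17-fold rise. Polk, a polymerase of the same kind, rose 2.15-fold to 76.1 ± 20.8 in STZ liver, against 26.3 ± 7.14 in untreated liver (SD, n = 5 each). Brca1 had 34.1, 35.5, 23.6, 23.9 and 57.2 in STZ mice against 13.8, 12.1, 16.6, 13.2 and 1.75 in untreated mice, a mean not above background. Lig3, a DNA ligase, was 1.33-fold lower, and this call was lost with averaged probe sets. Of 42 BCL2 and caspase genes 1 was higher and 3 lower. Bok and Bik, proteins of the BCL2 family that promote cell death, were 1.84-fold and 1.62-fold lower.

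Genes of the Zfp series, most of which encode zinc finger transcription factors, were more often lower than higher, by small amounts. Of 268 measured 32 were lower and 6 higher, with a median of −0.16. The count of lower genes was 19 without the fifth STZ mouse and 24 to 39 without any other array, and it was 18 after median centring. With each of the 10 arrays left out, 14 of the 32 kept their call. Zfp719 fell 1.62-fold, with 23.7, 15.8, 20.7, 20.3 and 14.98 in STZ mice against 48.3, 38.2, 42.7, 33.9 and 40.4 in untreated mice. Zfp9 had 51.4, 6.29, 10.5, 15.7 and 2.51 in STZ mice, with the first mouse highest, against 70.6, 56.3, 58.3, 52.4 and 66.4 in untreated mice. Zfp809, which silences retroviral elements in mouse embryonic cells, was 1.76-fold higher and Zfp395 was 1.80-fold higher. Over the 5 bins of equal size by mean level, from dim to bright, 69, 106, 66, 21 and 6 of the Zfp genes fell in each. In the 3 dimmest bins the median of the Zfp genes was −0.16, −0.19 and −0.14, against −0.08, −0.09 and −0.06 for all genes of those bins.

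**Figure D5:**
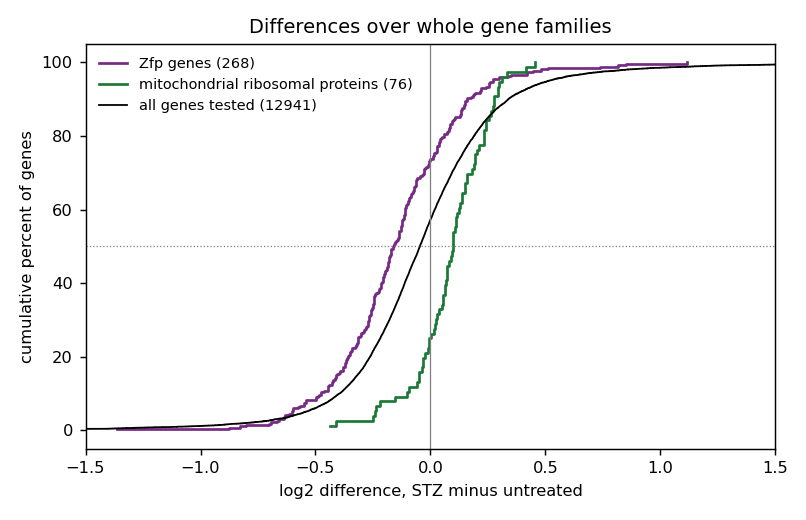
Cumulative percent of genes by log2 difference, STZ minus untreated, for the 268 Zfp genes, the 76 mitochondrial ribosomal proteins and all 12941 genes tested. The Zfp curve crosses 50% at −0.16, that of the mitochondrial ribosomal proteins at 0.10 and the curve of all genes at −0.05.

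Lists of transcription and translation machinery had 5.26% (RNA polymerase and Mediator subunits) to 15.8% (translation factors) of members called, against 13.8% of all genes. Among 105 splicing factors 4 were higher and 7 lower, among 95 RNA polymerase and Mediator subunits 2 higher and 3 lower, and among 89 histone and DNA modifying enzymes 5 higher and 7 lower. Setd4, a methyltransferase, was 2.77-fold higher, with 115, 172, 157, 181 and 204 in STZ mice against 31.7, 49.5, 56.2, 54.8 and 54.4 in untreated mice. Sirt3, the mitochondrial deacetylase, was 1.61-fold higher. Of 57 translation factors 6 were higher and 3 lower, of 72 ribosome biogenesis genes 6 and 2, and of 36 aminoacyl-tRNA synthetases 1 and 2. Among the translation factors, 1 of the 6 and 1 of the 3 kept their call with each array left out. Tars, the threonyl-tRNA synthetase, was 2.16-fold lower. Of 41 core liver transcription factors (24.4% called) 4 were higher and 6 lower, and 2 of the 4 and 1 of the 6 kept their call. Foxa1, a pioneer factor of the hepatocyte, was 1.75-fold lower. Its signal was 116 ± 28.2 in STZ liver against 210.5 ± 13.2 in untreated liver (SD, n = 5 each).

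Immediate early genes, which answer signals within minutes to hours, had 10 of 41 higher and 3 lower (median 0.17), and 9 of the 10 kept their call with each array left out. Btg2, an antiproliferative protein, rose 2.06-fold, with 196, 165, 169, 221 and 159 in STZ mice against 79.0, 74.2, 88.3, 103 and 57.9 in untreated mice. Csrnp1 rose 2.12-fold and Dusp6, a phosphatase that switches off ERK, 1.61-fold. Ccn1, a matrix protein and target of the Hippo effector YAP, fell 3.02-fold, with 59.9, 33.3, 36.5, 44.7 and 17.9 in STZ mice against 124, 182, 153, 85.7 and 196 in untreated mice. All 4 of its probe sets differed in the same direction. Among 82 phosphatases 10 were higher and 3 lower, with Ppp3ca, the catalytic subunit of calcineurin, 1.35-fold higher.

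The Hippo list had 5 of 27 genes lower and 0 higher, and 3 of the 5 kept their call with each array left out. Besides Ccn1, the transcription factor Tead3 was 1.53-fold lower with overlap and the kinase Stk4 1.36-fold lower, the last not with averaged probe sets. In the TGF-beta and activin list 3 of 46 were higher and 4 lower. Tgfbr2, a TGF-beta receptor, was 1.79-fold higher, Inhbc, an activin chain made by liver, 1.59-fold lower with overlap, and Inhba, another chain, 2.50-fold lower or 1.56-fold with averaged probe sets. In the Notch and Hedgehog list 4 of 31 were higher and 4 lower, with the ligand Dll1 1.58-fold higher. Of 55 receptor tyrosine kinase genes 4 were higher and 6 lower. Klb, the co-receptor of the hormone FGF21, was 1.41-fold higher, and Efna1, an ephrin, 2.30-fold lower.

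Of 85 G protein-coupled receptor and RGS genes 5 were lower and 1 higher. Avpr1a, the vasopressin receptor of hepatocytes, had 86.1, 85.1, 81.3, 166 and 87.9 in STZ mice against 269.5, 229, 298, 273 and 271 in untreated mice, a 2.49-fold fall (limma adjusted p = 0.00168). Fzd7, a Wnt receptor, was 1.89-fold lower. Pde5a, which breaks down cyclic GMP, had a mean signal of 9.03 in STZ against 32.4 in untreated liver. Stat5b, a transcription factor of growth hormone action, was 1.38-fold lower, a call that ended after median centring. Of 39 chemokine, interleukin and TNF genes 2 were higher, of which Ccl6 was 1.76-fold higher.

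Of 54 genes of cell contacts measured 7 were lower and 3 higher (median −0.16), and all 7 kept their call with each array left out. Cdh2, the N-cadherin that hepatocytes carry, fell 1.61-fold, and Cldn12, a claudin, 1.39-fold. The next 4 genes were chosen after their values were seen. Cldn1, the main claudin of the tight junction around the bile canaliculus, had 205, 171, 129.8, 461 and 158 in STZ mice against 945, 791, 804, 888 and 733 in untreated mice, a 3.86-fold fall (limma adjusted p = 0.0107). Cdh1, E-cadherin of periportal hepatocytes and bile ducts, had 118, 159.8, 105, 165 and 117 in STZ mice against 451, 318, 384, 284 and 283 in untreated mice, a 2.41-fold fall. Tjp3, a tight junction scaffold, fell 2.49-fold and Cgn, cingulin, 1.99-fold. Gja4, a connexin, was 1.67-fold higher.

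Among surface and matrix proteins, Sdc1, the heparan sulfate proteoglycan that clears remnant lipoproteins, was 1.85-fold higher at 1854 ± 598 in STZ liver against 953 ± 86.3 in untreated liver (SD, n = 5 each), with overlap between the groups. The list of integrins, laminins and matrix receptors had 3 of 49 higher and 3 lower, and that of metalloproteases and their inhibitors 0 of 36 higher and 1 lower. Annexins, S100 proteins and galectins, which bind calcium, lipids or sugars, had 6 of 25 higher and 0 lower, and 4 of the 6 kept their call with each array left out. S100a13 was 1.80-fold higher with overlap, and Anxa3, Anxa6 and Anxa7 were 1.31-fold, 1.36-fold and 1.35-fold higher, the last 2 not with averaged probe sets. Pfn2, a profilin of the actin skeleton, was 2.29-fold lower and Krt23, a keratin, 2.33-fold higher with overlap, in a list with 3 of 61 higher and 3 lower.

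Glycosyltransferases had 2 of 92 higher and 8 lower (median −0.14), with 4 to 9 lower when single arrays were left out and the sialyltransferase St3gal1 1.60-fold lower. The COPI, COPII and translocon list had 4 of 67 higher and 8 lower (median −0.16). Of these 8, Sec11a, a signal peptidase subunit (1.34-fold lower), alone kept its call with each array left out, and the count fell to 2 without the fourth or the fifth STZ mouse or the first untreated mouse. Among 139 SNARE, exocyst and sorting genes 11 were higher and 6 lower, and Exoc4 was the member with the largest change. Of 58 Rab GTPase genes 4 were higher and 2 lower, with Rab32 1.58-fold lower. In the ubiquitin lists 9 of 159 conjugating enzyme and F-box genes were higher and 9 lower, and 4 of 54 specific proteases higher and 1 lower. Trim24, a nuclear receptor cofactor, was 4.01-fold higher, with 193, 249.9, 260.0, 311 and 383 in STZ mice against 45.9, 46.5, 64.7, 72.0 and 54.4 in untreated mice, or 1.72-fold with averaged probe sets.

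Of the remaining lists, hypoxia-inducible genes had 6 of 39 higher and 4 lower, and Cited2 had the smallest p-value among the 4. Ndrg1, a stress-induced gene of the same list, was 1.73-fold lower at all 5 of its probe sets. Retinoid handling genes had 5 of 28 higher and 2 lower, and 3 of the 5 and both of the 2 kept their call. Cytokine receptor, JAK and STAT genes had 2 of 57 higher and 4 lower, phosphodiesterases and adenylyl cyclases 3 of 26 and 2, and polyamine, creatine and carnitine genes 3 of 22 and 1. Peroxisome biogenesis had 1 of 13 higher and 1 lower: Pex7, an import receptor, was 1.28-fold higher, and Pex6, an ATPase that recycles such receptors, 1.60-fold lower at all 5 probe sets. Aquaporins had 1 of 8 higher and 1 lower, and sodium and calcium pumps 2 of 10 and 0, and 1 of the 2 pumps kept its call.

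Some markers of other cell types in the liver were called. In bulk tissue, fewer cells of a type and less RNA per cell cannot be told apart. Of 11 Kupffer cell markers Cd5l was called, 1.43-fold higher with overlap. Counted by sign alone, 10 of the 11 were higher and 1 lower in STZ liver, with a median of 0.21 log2 units. The summed signal of the 11 was 3468 to 4914 in STZ liver and 3294 to 4019 in untreated liver, which overlap. Of 10 markers of sinusoidal endothelium Lyve1 was called, 2.29-fold higher, with 99.95, 201, 169, 142 and 265 in STZ mice against 75.9, 68.9, 65.8, 47.8 and 65.0 in untreated mice. By the sign of the difference alone, 2 of the 10 were higher and 8 lower in STZ liver, with a median of −0.18 log2 units. The summed signal of the 10 was 1740 to 2585 in STZ liver and 2290 to 2381 in untreated liver. Of 12 stellate cell markers 4 were lower and 0 higher, among them Pdgfrb, a receptor of platelet-derived growth factor, at 2.15-fold lower and the collagen gene Col3a1 at 2.55-fold lower. The summed signal of the 12 was 3233 to 4181 in STZ liver and 3941 to 5437 in untreated liver.

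Of 3 pancreas genes measured Cela1, a pancreatic elastase, was 2.86-fold lower, at 573 ± 191 in STZ liver against 1611 ± 184 in untreated liver (SD, n = 5 each). Of 3 erythroid genes Alas2, the heme synthesis enzyme of red cells, had 1365, 330.2, 378, 302 and 194 in STZ mice against 1443, 1294, 1327, 1258 and 1313 in untreated mice, a 3.22-fold fall with overlap whose call ended without any 1 of 9 arrays. Among the other lists 1 of 5 cholangiocyte, 1 of 5 B cell and 1 of 4 T and NK cell markers were lower, the 1 adipocyte marker measured was higher, with an untreated signal of 1.68 to 14.8 that was not above background, and 0 of 6 neutrophil, 0 of 2 mesothelium and 0 of 2 skeletal muscle markers were called. The calls of the adipocyte marker and the T and NK cell marker did not hold with each array left out. The markers named outside hepatocytes were chosen after their values were seen, and their part in the lists above was not tested.

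Calls were spread over the genome. Between 9.69% (chromosome X) and 17.4% (chromosome 5) of the genes tested on a chromosome were called, leaving out chromosome Y with 5 genes tested and the mitochondrial genome with 1. Among 841 called genes with several probe sets above background, all probe sets differed in the same direction in 697 (82.9%), against 56.7% of 4071 genes not called.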

How the data were processed

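Liver RNA of single mice was labelled with biotin and hybridised to Affymetrix mouse arrays, per the labels' protocols. The values deposited by the authors are linear intensities of 45101 probe sets and not log2 values: each array averaged 100 once 2% of values were dropped at either end. The sources used here do not name the software. The 64 control probe sets, 9160 with no listed gene and 932 with several genes were left out. The other 34945 named 18193 genes through the platform annotation, and 34741 matched RefSeq by Entrez identifier, with 0 symbols changed. For each gene the probe set with the highest mean over 20 arrays was used, and genes at or above the 40th percentile (a signal of 8.49) were kept.

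Group means of the 4 groups were fitted to log2(signal + 16) with limma 3.58.1 in R 4.3.3 (lmFit, eBayes, two-sided, 16 residual and 4.56 prior degrees of freedom), and p-values were adjusted by Benjamini and Hochberg over 12941 genes. The fit was tested on simulated data. The number of arrays limits the precision. Replicates were single mice per the labels' protocols.

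Members, gene lists, alternatives and naming rule were all chosen with earlier results of these data known. Leaving out 75 genes already well described and unnamed kinds of transcript, the rule took (a) the 10 smallest p in each direction among called genes without overlap between groups and above background, (b) the 6 of highest signal in each direction among called genes, (c) the 6 smallest p in each direction among those under 1.5-fold, (d) the 5 of highest signal in each direction whose lower group was not above background, (e) the 5 with the largest SD among STZ mice, (f) in each list the called members of smallest p, at most 4, and (g) the hepatocyte markers. Genes of (e) were taken from those with an untreated mean above background. The text names all of (a) and (b) and some of the others, and says where a gene was chosen after its values were seen. Promoters are from RefSeq, GRCm38.p6. As alternatives, each array was left out in turn, a replicate block or array weights were added, the prior was trended and robust, the fit used only the 2 groups, the pseudocount was 1, probe sets of a gene were averaged, the filter was dropped or set at the 60th percentile, and arrays were median-centred or quantile-normalized. Figures were drawn with matplotlib 3.10.9.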

Additional observations from a re-analysis of the deposited data

Results flagged for a closer look

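In 16 of the 340 groups of 5 arrays behind the genes named, 1 mouse stood apart. Its distance to the nearest of the other 4, divided by the range of the group (Dixon's ratio), exceeded 0.71. The ratio was taken on log2(signal + 16), while the signals given beside it are linear. Chance gives such a mouse in about 1 in 20 groups, and 16 of 340 is 4.71%. No single mouse accounts for most of them, and the first STZ mouse is the one that stands apart in 3. Their causes were not tested.

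In STZ liver the first mouse was lowest for Mt2, at 71.8 against 1247 to 2581 in the other 4 (ratio 0.787), for Adssl1, at 133 against 197 to 213.7 (ratio 0.826), and for Slc22a5, at 256 against 385.9 to 455 (ratio 0.711). The third STZ mouse was lowest for Bik, at 20.88 against 40.68 to 43.82 (ratio 0.889), and highest for Ces4a, at 30.98 against 16.37 to 19.79 (ratio 0.731). The fourth STZ mouse was highest for Avpr1a, at 166 against 81.33 to 87.87 (ratio 0.896), and for Apoc2, at 7350.0 against 5644 to 6010.0 (ratio 0.762). The fall of Avpr1a and the rise of Mt2 were called with and without these mice, and the call of Apoc2 ended without the fourth STZ mouse.

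In untreated liver the fifth mouse was highest for Tspan33, at 306.9 against 214.9 to 221.3 (ratio 0.919), and for Car3, at 16470.0 against 13350.0 to 14120.0 (ratio 0.733). It was lowest for Slc25a12, at 121.1 against 151.8 to 163.9 (ratio 0.744), and for Brca1, at 1.754 against 12.11 to 16.65 (ratio 0.754), where all 5 were at background. The fourth untreated mouse was highest for Tk1, at 89.2 against 54.13 to 61.13 (ratio 0.766), and for Crls1, at 312.9 against 249.3 to 265.9 (ratio 0.718). The third was highest for Ndrg1, at 267.9 against 191.3 to 210.7 (ratio 0.715), the second for Sult1e1, at 8.623 against 0.5599 to 1.434 (ratio 0.87) and all at background, and the first lowest for Setd4, at 31.67 against 49.46 to 56.2 (ratio 0.764).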

How the results depend on the processing

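The main fit called 1785 genes. Array weights gave 2850 calls, and the other alternatives that kept all 10 arrays gave 1547 (no filter) to 2099 (only the 2 groups). Leaving out single arrays gave 1175 to 1992 calls, a share of calls higher in STZ liver of 48.2% to 53.9%, 274 to 391 calls of at least 2-fold, against 324, and 1814 to 2547 genes without overlap between groups, against 1666. The fewest calls came without the fifth STZ mouse and the most genes without overlap came without the first. Smaller groups overlap less often. Median centring moved the median difference of all genes from −0.05 to 0.03 log2 units and gave 69.1% of calls higher, against 50.03%. Array medians were 11.2 to 15.9 in STZ liver and 14.7 to 16.3 in untreated liver, and the cause of their difference was not tested. Calls of at least 2-fold numbered 452 with a pseudocount of 1 and 244 with the mean of probe sets.

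Of 170 genes named, 167 were called, 148 kept their direction and side of the threshold under every alternative, 156 with each array left out, and 0 changed direction under any of them. The mean of probe sets ended the calls of 9, median centring of 6, a pseudocount of 1 of 5, no filter of 4, quantile normalization of 3 and the trended robust prior of 2. The replicate block gave 1923 calls, ended the call of Gstp1 and brought in Cyp4a12a and Slco1a1. These 2 were also called with array weights, with only the 2 groups, with the 60th percentile filter and without the first STZ mouse. Replicate numbers are not shown to pair mice. The correlations of deviations between mice with the same number were 0.157, 0.061, 0.075, 0.124 and −0.023, the first the highest of all pairs. Between mice with different numbers they were −0.156 to 0.132, and 4 of the 5 STZ mice correlated best with untreated mice of another number. At an unadjusted p under 0.05, 3669 genes differed. Signal over background limits dim genes, of which few could be called.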
